A study of Mus musculus with 6 samples.

Results

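The transcripts described here are genes that the deposited table of embryonic mouse heart expression types as TEC or sense_intronic. TEC is the label for a locus that still awaits experimental proof and marks a transcribed stretch that the annotation has not yet assigned to a class. A sense_intronic gene is a noncoding transcript that lies in an intron of a coding gene and on the same strand. The table holds 663 such genes (518 TEC and 145 sense_intronic), each with 1 row, among 26199 genes. The 463 with a mean of at least 1 FPKM over the 6 libraries were taken as members, 362 of them TEC and 101 sense_intronic. FPKM is the number of sequenced fragments per kilobase of transcript, scaled to the size of the library. The members were chosen by their mean FPKM over all 6 libraries, so their level is a description and not a result, while the rule itself used neither the difference between groups nor the order of the libraries.

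The study deleted Mrps5, a gene for a protein of the mitochondrial ribosome, in heart muscle cells. Control hearts were Mrps5 fl/fl and mutant hearts Mrps5 fl/fl; cTNT-Cre, all at embryonic day 12, with 3 libraries per group and each library made from pooled hearts of different embryos. By the labels both groups carried the floxed alleles on both chromosomes, although the study's text also names embryonic mutants Mrps5 fl/+ in a legend, and the Cre transgene, driven by the cardiac troponin T promoter, was present in the mutants alone, so the floxed gene remained in the other cell types of the mutant heart. The labels describe total RNA from which ribosomal RNA was taken out before random priming, a procedure that also retains RNA without a poly(A) tail, and the library kit marked the strand. The study's methods describe selection on poly(A) tails, but for hearts of adult mice.

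RNA polymerase copies introns together with exons, and the introns are normally spliced out and degraded in the nucleus. Fragments from an intron can therefore come from the precursor of the coding gene, from an intron that was kept, or from a separate noncoding transcript that starts inside the gene. Most of the TEC and sense_intronic genes described here are counted over a stretch of such an intron. For these the sources cannot be told apart from the values of the table. A coding messenger RNA usually ends shortly after a polyadenylation signal, most often AATAAA or ATTAAA, which sets where the transcript is cut and tailed.

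The sequences of the members came from the GENCODE M21 transcript set, which held 462 of the 463. The submitters' notes name mm9 without saying for what, and M21 describes a later assembly, so chromosomes and neighbouring genes are given and no positions. The most abundant member, Gm28967 (chromosome 6, minus strand, 281 bases), is shown whole, because its sequence shows what the row counts. Every base of it is found in Scarna10, a small RNA of the Cajal body that guides the modification of U5 spliceosomal RNA, as bases 43 to 323 of the 325 of that gene, inside the coding gene Ncapd2.

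Gm28967: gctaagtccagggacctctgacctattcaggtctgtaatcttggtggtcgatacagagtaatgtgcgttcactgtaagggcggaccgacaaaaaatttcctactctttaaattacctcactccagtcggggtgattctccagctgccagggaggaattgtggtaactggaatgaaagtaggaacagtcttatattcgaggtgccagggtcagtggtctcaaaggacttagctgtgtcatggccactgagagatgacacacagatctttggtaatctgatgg

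The other members were mostly stretches of intron, and the ends of a few are shown because the end of a transcript is where a separate, tailed RNA would carry a polyadenylation signal. Each line gives the last 60 bases of the annotated transcript, with AATAAA or ATTAAA in capitals where present. The first 6 are from members described below that had neither motif in this window, and the last 2 are members in an intron, among those of highest mean FPKM that had one.

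Gm42635 (in Pcdh7): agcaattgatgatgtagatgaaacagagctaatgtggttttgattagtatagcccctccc
Gm42615 (in Ppargc1a): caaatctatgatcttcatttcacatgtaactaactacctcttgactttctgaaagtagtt
Gm38254 (in Mlip): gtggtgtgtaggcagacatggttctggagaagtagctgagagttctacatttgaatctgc
Gm16076 (in Erbb4): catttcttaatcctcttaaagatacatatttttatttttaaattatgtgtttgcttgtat
RP24-317F6.7 (in Mthfd2): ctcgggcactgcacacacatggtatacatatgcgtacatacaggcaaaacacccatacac
Gm37527 (in Kel): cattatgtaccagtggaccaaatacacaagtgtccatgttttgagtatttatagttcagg
Gm42929 (in Cnn3): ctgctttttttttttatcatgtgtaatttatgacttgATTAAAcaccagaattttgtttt
Gm42480 (in Pcdh7): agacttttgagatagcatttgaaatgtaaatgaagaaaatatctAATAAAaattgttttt

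One of these signals, read on the transcript's strand, stood in the last 50 bases of 94 of 462 members, or 20.3%. The share was 78.4% in the most abundant row of 11692 coding genes with an FPKM of at least 1 and 58.6% in 152 lincRNA genes with a sequence. A run of 8 A in the same window was found in 4.33% of members and 3.72% of coding rows. The members' GC content had a median of 41.2%, below the 50.2% of the coding rows, and their median length was 2220 bases, from 193 to 8163. These are features of the annotated sequences, and a window without the motif says nothing on whether the RNA had a tail.

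By GENCODE M21, which matched 459 members, 426 lay in an intron of a coding gene on the same strand. A further 16 overlapped an annotated exon of a coding gene, 12 had no gene on their strand, and 5 lay in a noncoding gene. A single exon was annotated for 410, and 49 were spliced. The members were unevenly spread over the genome, with 98 on chromosome 5, 97 on chromosome 1, 71 on chromosome 3 and 57 on chromosome 6. The 425 intronic members whose coding gene was also in the table lay in 376 different genes, and 38 of these genes held more than 1 member, 87 members in all, so members of the same gene are not independent.

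Levels were low. The median of the members' mean FPKM was 2.24 (quartiles 1.47 and 3.35), 201 members were under 2, and 14 reached 10. Gm28967 stood alone at 2189, and the next, Gm42664, was at 22.9. Per kilobase, an intronic member reached a median of 14.1% of the level of the coding gene that holds it (quartiles 8.56% and 21.6%), and it exceeded that gene in 3 of 425 pairs. Just inside the limit of 1 were Gm26984 (in Rxfp1) at 1.01 and RP23-174K7.2 (in Xylt1) at 1.01, and just outside were AC153143.1 (in Elmo1) at 0.994 and Gm42998 (in Ostc) at 0.992.

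Some facts of the libraries bear on what follows. Mrps5 itself was at 9.65, 11.4 and 10.4 FPKM in control replicates 1, 2 and 3, at 5.28 and 7.41 in mutant replicates 1 and 2, and at 10.4 in the library labelled mutant replicate 3. This library was thus at the control level of the deleted gene, and whether its label holds could not be settled from the table. Mthfd2, the coding gene with the largest difference among those described here, was at 33.8 FPKM in it and at 12.9 to 15.8 in the controls, on the side of the other mutants. It is counted among the mutants by its label, and the main counts are also given without it. Cardiomyocyte markers (8 genes) took 2.06%, 1.83% and 2.23% of the summed FPKM in controls and 1.35%, 1.73% and 1.67% in mutants, with 4 of 8 lower at an unadjusted p under 0.05. Erythroid markers (10 genes) took 12.2%, 13.3% and 12.0% in controls and 23.5%, 10.8% and 21.9% in mutants, with 4 of 10 higher. Of the lists for endothelial, epicardial, mesenchymal, smooth muscle, macrophage, neural and liver cells and for lung and gut epithelium, none took more than 0.132% in any library, and by the same rule 1 endothelial and 1 smooth muscle gene were lower and 1 neural gene higher. Low values of genes with a single row fell on steps of whole fragments (within 0.05) in 46.9 to 50.4% of cases, where a window of this width covers 10%, and the steps gave a rough depth of 16800000, 19300000 and 23400000 fragments in the controls and of 19700000, 23100000 and 27100000 in the mutants, by replicate number. The members' own values fell on such steps in 8.01 to 11.9% of cases, close to what the window covers, so their fragment numbers are estimates from this depth. On this scale the median member rested on about 122, 107 and 110 fragments in controls and 86.2, 94.0 and 88.6 in mutants, a counting error of 9 to 11% before any spread between pools.

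The members differed from library to library, within the groups as well as between them. For each gene the deviation of log2(FPKM + 1) from its own mean over the 6 libraries was taken. The median deviation over the 463 members was 0.43 in control replicate 1, 0.16 in control replicate 2 and -0.01 in control replicate 3. It was -0.06 in mutant replicate 1, -0.16 in mutant replicate 2 and -0.35 in the library labelled mutant replicate 3. Control replicate 1 held the highest value of 377 members (81.4%) and the library labelled mutant replicate 3 the lowest of 331 (71.5%), where the same held for 22.9% and 26.5% of all genes tested.

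Differences within a group were of the size of that between groups. Control replicate 1 exceeded control replicate 3 by a median of 0.45 on the log2 scale, with 440 of 463 members higher. Control replicate 3 exceeded the mean of the mutants by 0.17, with 379 members higher. Among the mutants, replicate 1 exceeded replicate 3 by 0.27. The groups' library medians did not overlap, but the lowest control and the highest mutant lay closer together than any neighbouring controls did.

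**Figure D1:**
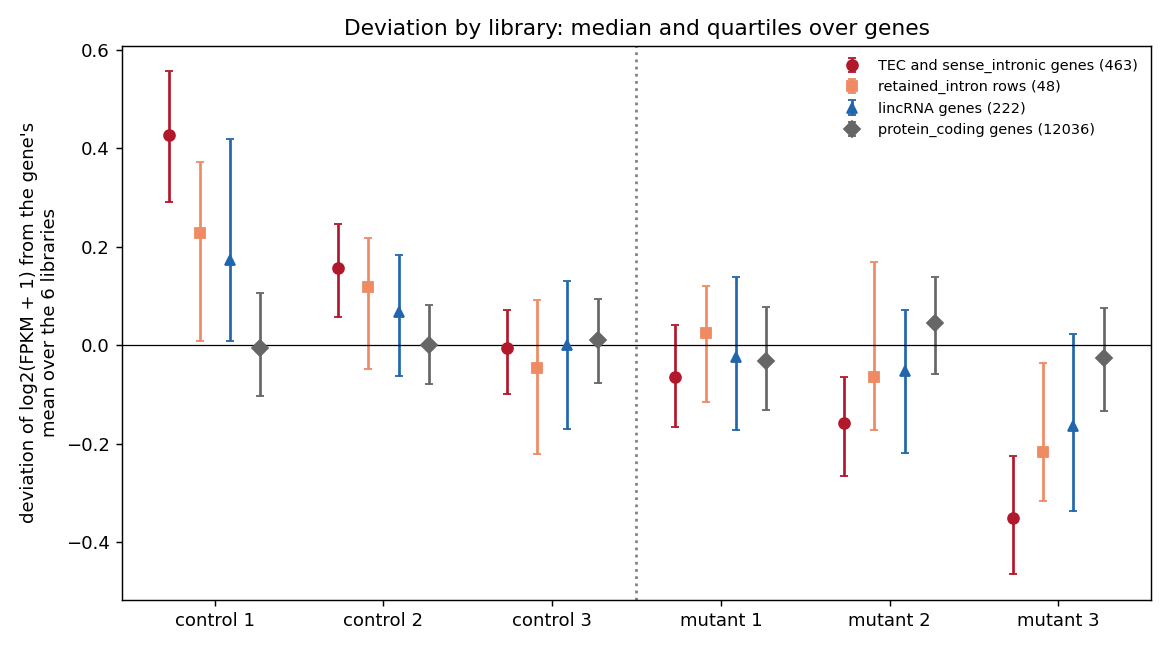
Median (symbol) and quartiles (bars) over genes of the deviation of log2(FPKM + 1) from the gene's own mean, for each of the 6 libraries and 4 kinds of transcript with a mean FPKM of at least 1. The TEC and sense_intronic genes run from 0.43 in control replicate 1 to -0.35 in the library labelled mutant replicate 3, lincRNA and retained_intron rows follow with smaller deviations, and coding genes stay between -0.03 and 0.05.

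The pattern differed by kind of transcript. Coding genes with a mean of at least 1 FPKM had median deviations between -0.03 and 0.05, and the 3189 of them at 1 to 5 FPKM, the range of most members, between -0.08 and 0.04. The 222 lincRNA genes ran from 0.17 in control replicate 1 to -0.16 in the library labelled mutant replicate 3, and the 101 antisense genes from 0.16 to -0.15. Rows that the annotation types as retained introns of other genes (48 rows) ran from 0.23 to -0.22. The members thus had the widest range of the kinds compared. The noncoding kinds had the same library at each end, and so did the coding genes at 1 to 5 FPKM, with a smaller range.

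Within the members, the pattern was alike in most subsets. TEC members ran from 0.43 to -0.35 and sense_intronic members from 0.39 to -0.31. The tertile of lowest GC content ran from 0.37 to -0.35 and that of highest GC from 0.47 to -0.35, and the shortest tertile ran from 0.40 to -0.36. Members with a polyadenylation signal near their end ran from 0.42 to -0.33 and those without from 0.43 to -0.35. Spliced members ran from 0.37 to -0.34, and the 16 that overlap a coding exon from 0.35 to -0.23. The 12 members with no gene on their strand had a smaller range, from 0.20 in control replicate 1 to -0.11 in the library labelled mutant replicate 3, and 200 TEC and sense_intronic genes under the limit of 1 ran from 0.26 to -0.21.

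Depth moved with this pattern within each group, and control replicate 1 was the shallowest library and the library labelled mutant replicate 3 the deepest. Between the groups it did not: control replicate 3 was deeper, at 23400000 fragments, than mutant replicates 1 and 2, at 19700000 and 23100000. The members were nevertheless higher in control replicate 3. The part of depth in the result was not tested. The share of cardiomyocyte markers was highest in control replicate 3 and lowest in mutant replicate 1, and that of erythroid markers was highest in mutant replicate 1 and lowest in mutant replicate 2. Their part in the result was not tested either. Long nuclear RNAs were given by a list of 8 genes, of which 5 were found by symbol, and Norad, a cytoplasmic RNA listed for contrast, was not found. Malat1, a nuclear RNA of splicing speckles, was at 2267, 1656 and 1208 FPKM in control replicates 1, 2 and 3 and at 1862, 1169 and 1028 in mutant replicates 1, 2 and 3. Airn, the long transcript of the imprinted Igf2r region, was at 139, 101 and 73.3 in controls and 75.5, 74.2 and 53.1 in mutants. Kcnq1ot1, an imprinted antisense RNA that lies inside Kcnq1, was at 21.2, 16.3 and 13.5 and at 11.3, 11.2 and 9.10. Mirg, an imprinted microRNA host gene, was at 6.07, 5.01 and 4.63 and at 5.58, 5.56 and 3.22. In these 4 control replicate 1 was highest and the library labelled mutant replicate 3 lowest. Neat1, the RNA of paraspeckles, was instead highest in mutant replicate 1, at 13.3, 8.09 and 7.35 in controls and 13.8, 8.28 and 8.09 in mutants. At an unadjusted p under 0.05, 2 of the 5 (Airn and Kcnq1ot1) were lower and none higher. Messages of the replication-dependent histones, which lack a poly(A) tail, took 4.49%, 4.71% and 4.85% of FPKM in controls and 4.86%, 4.43% and 5.997% in mutants. Of their 65 tested genes 3 were higher and none lower, where 5.58% of all genes tested were higher and 9.43% lower. A further 9 small RNAs without a tail were not found by symbol.

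Mutant and control hearts were then compared gene by gene with limma on log2(FPKM + 1), where a gene had to reach 1 FPKM in 3 or more libraries. Of 13262 genes that did, 456 were members. Since 1 is added to each FPKM, low genes show a smaller fold change here than their FPKM ratio. At an unadjusted p under 0.05, 211 of 456 members (46.3%) were lower in mutant hearts and 1 was higher. Of all genes tested, 9.43% were lower and 5.58% higher by the same rule. The median log2 fold change was -0.36 for the members and -0.02 for all genes, and 434 members lay below 0. Coding genes were lower in 896 of 12048 (7.44%), lincRNA genes in 39 of 226 and antisense genes in 15 of 102.

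After Benjamini-Hochberg adjustment over all genes by limma, 1 member had an adjusted p under 0.05, Gm42635, where 0.0302% of all genes were lower by this rule. The values of the 3 mutants lay below those of the 3 controls in 222 members, against 13.0% of all genes, and above them in 1, against 7.74%. With the filter set at a mean FPKM of at least 1, which keeps all 463 members, 209 were lower, against 9.34% of all genes. The 7 members outside the first filter reached 1 FPKM in fewer than 3 libraries.

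The count rested in part on the libraries at the ends. It was 115 without control replicate 1, against 5.85% of all genes in the same fit, and 137 without the library labelled mutant replicate 3, against 8.81%. Without both, with 2 libraries left in each group, 76 members were lower, against 6.45% of all genes, and 7 higher, against 4.9%. The median log2 fold change of the members was then -0.17. Both libraries were left out because they were the highest and the lowest in these members, after their values were seen, so that a smaller difference followed from the choice. A difference in group cannot be told apart from the differences between single libraries with 3 pools a group.

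**Figure D2:**
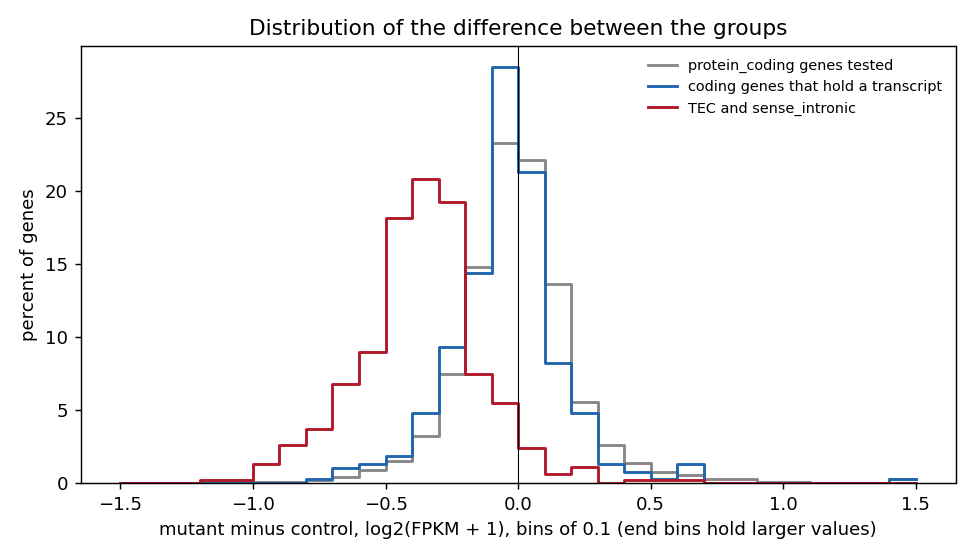
Share of genes (percent) by their difference between mutant and control hearts on the log2(FPKM + 1) scale, in bins of 0.1. The TEC and sense_intronic genes centre on -0.36, while the coding genes that hold them and all coding genes tested centre near 0.

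The members with the lowest p-values are described here with the gene that holds each. Gm42635 (chromosome 5) lies in Pcdh7, which encodes a protocadherin of the cell surface. It was at 15.2, 15.1 and 12.8 FPKM in control replicates 1, 2 and 3 and at 7.06, 7.51 and 7.79 in mutant replicates 1, 2 and 3. All mutants were under 8 and all controls above 12, and the library labelled mutant replicate 3 was not the lowest. It changed by -0.86 on the log2 scale (standard error 0.10, limma adjusted p = 0.0262). The adjusted p rose above 0.05 when any single control or mutant replicate 1 was left out, to 0.0555 to 0.168, while the fold change stayed between -0.93 and -0.82 in each fit without 1 library. It was 0.00588 without the library labelled mutant replicate 3. By limma it was also above 0.05 with no filter on low values (0.129), under the replicate block (0.0768) and with the most abundant row of each gene in place of the sum (0.133).

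Pcdh7 held 3 further members. Gm42480 was at 10.6, 8.84 and 6.65 in controls and 4.53, 3.78 and 4.76 in mutants, and Gm42486 and Gm43715 were lower as well, by -0.63 and -0.54 on the log2 scale. All 4 members had an unadjusted p under 0.05. Pcdh7 itself was at 42.8, 47.2 and 27.7 FPKM in controls and 22.2, 21.2 and 28.7 in mutants, a log2 fold change of -0.66 (standard error 0.20, limma adjusted p = 0.202). Each of the 4 stretches was thus lower, and the coding gene overlapped between the groups in control replicate 3 and mutant replicate 3.

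Cacnb2, which encodes the beta-2 subunit of the cardiac L-type calcium channel, also held 4 members. Gm37006 was at 17.98, 12.8 and 10.5 FPKM in control replicates 1, 2 and 3 and at 7.55, 5.10 and 6.07 in mutant replicates 1, 2 and 3, and Gm37891 at 5.999, 4.58 and 3.90 and at 1.88, 2.18 and 2.52. Both were below every control in every mutant, with log2 fold changes of -1.01 and -0.86 and a limma adjusted p of 0.106 and 0.0954. The members of Cacnb2 ranged from -1.01 to -0.64, and all 4 had an unadjusted p under 0.05. Cacnb2 itself changed by -0.52 (standard error 0.12, limma adjusted p = 0.143).

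Gm42615 lies in Ppargc1a, the gene of the coactivator PGC-1 alpha that drives mitochondrial biogenesis. It was at 5.60, 4.80 and 4.26 FPKM in controls and 2.37, 2.15 and 1.71 in mutants, a log2 fold change of -0.93 (standard error 0.13, limma adjusted p = 0.0605). The coding gene was at 16.1, 15.7 and 15.96 in controls and 12.7, 13.1 and 12.9 in mutants. Both separated the groups, the coding gene by less, at -0.29, and with little spread between replicates.

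Gm38254 lies in Mlip, which encodes a lamin-interacting protein of muscle. It had the lowest value of all members on this scale, with 7.17, 4.69 and 4.65 FPKM in controls and 2.11, 1.59 and 2.06 in mutants. Its log2 change of -1.14 had a standard error of 0.17 and a limma adjusted p of 0.0621. Mlip itself changed by -0.53 (standard error 0.13). In both, every mutant lay below every control.

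Gm16076, a spliced sense_intronic gene of 480 bases, lies in Erbb4, the neuregulin receptor that trabeculation of the ventricle depends on. It was at 19.9, 15.7 and 11.5 FPKM in controls and 7.67, 8.15 and 6.53 in mutants, and changed by -0.95 on the log2 scale (standard error 0.18, limma adjusted p = 0.103). Per kilobase it was near the level of Erbb4 itself, which was at 14.7, 14.1 and 12.5 in controls and 10.8, 11.1 and 11.5 in mutants. RP23-359M3.4 in Stk38l, the gene of a kinase of the NDR family, was at 4.65, 3.38 and 3.70 in controls and 2.32, 1.70 and 1.68 in mutants, also without overlap.

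**Figure D3:**
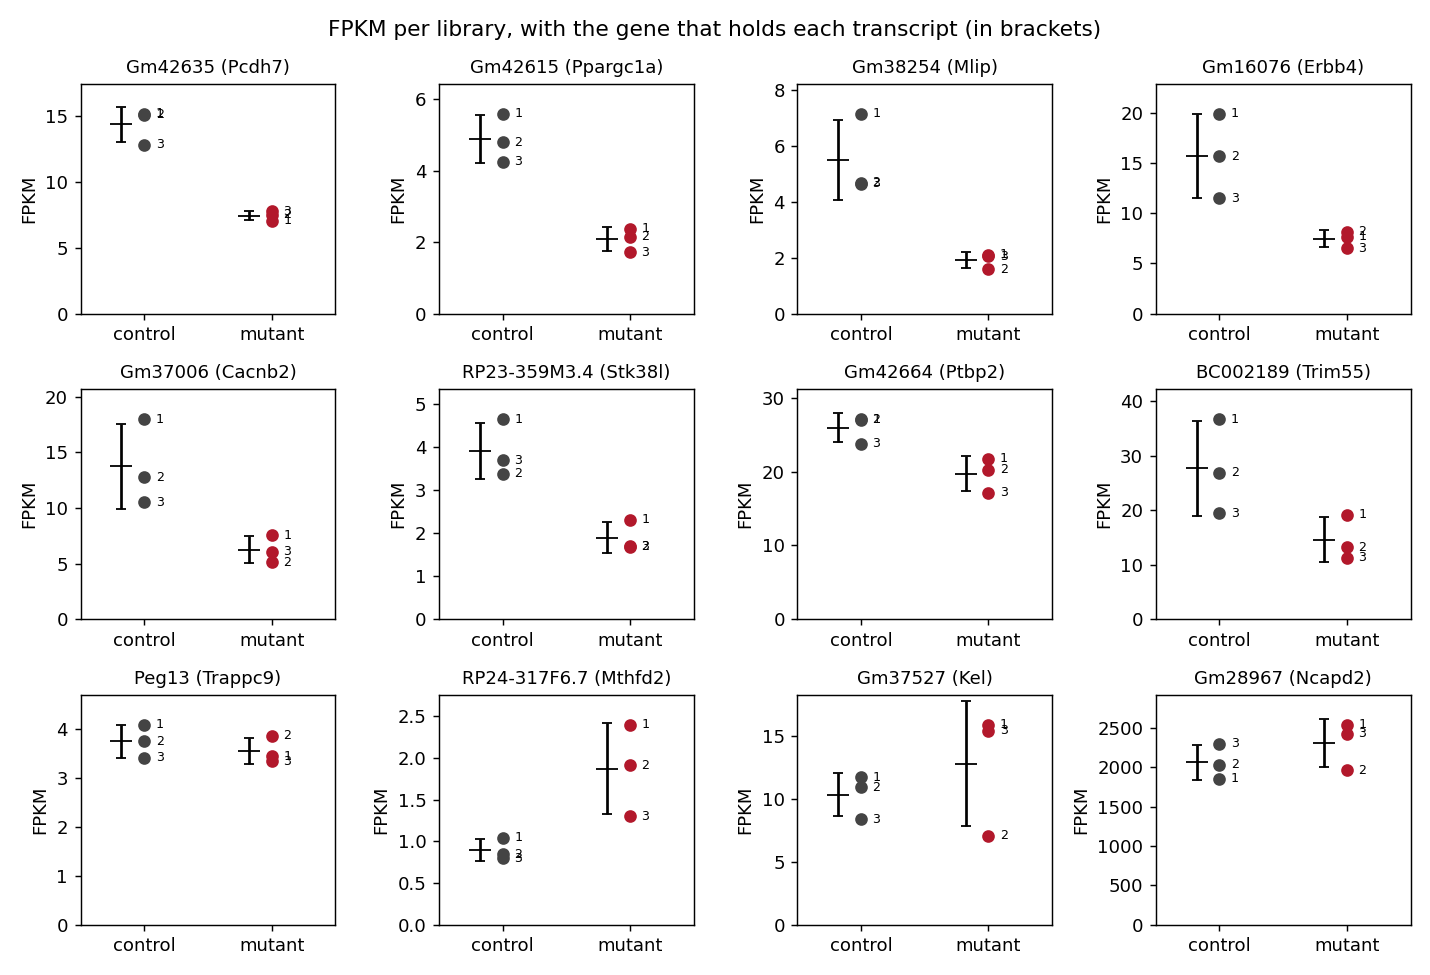
FPKM in each library for 12 TEC and sense_intronic genes, with the replicate number beside each point and the mean and SD of each group (n = 3) as a bar. The upper 8 are lower in every mutant than in every control, Peg13 overlaps, RP24-317F6.7 is higher in every mutant, and Gm37527 is high in mutant replicates 1 and 3 alone.

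Among the members with the highest mean, the pattern was less uniform. Gm28967, the row that matches Scarna10, was at 1858, 2034 and 2302 FPKM in control replicates 1, 2 and 3 and at 2544, 1964 and 2430 in mutant replicates 1, 2 and 3. It overlapped between the groups (0.16 on the log2 scale, standard error 0.16) and had its lowest value in control replicate 1. The fold change was 0.087 to 0.27 when 1 library was left out and 0.46 after quantile normalization. Gm28967 held much of the sum of the members. With it they took 0.837%, 0.759% and 0.766% of the summed FPKM in controls and 0.732%, 0.672% and 0.668% in mutants. With erythroid markers left out of the total the groups overlapped, at 0.953%, 0.875% and 0.870% in controls and 0.956%, 0.753% and 0.856% in mutants, and the difference of the means went from -0.0964 to -0.0443 percentage points. With mitochondrial DNA genes left out of the total as well, the groups still overlapped and the difference was -0.0960 percentage points. Without Gm28967 the members took 0.428%, 0.324% and 0.276% of the full sum in controls and 0.239%, 0.241% and 0.188% in mutants.

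Gm42664 in Ptbp2, the gene of a splicing regulator, was at 27.1, 27.1 and 23.8 FPKM in controls and 21.8, 20.3 and 17.2 in mutants. BC002189 in Trim55, which encodes a RING finger protein of the sarcomere, was at 36.7, 26.8 and 19.4 and at 19.2, 13.2 and 11.3. Both separated the groups, with log2 fold changes of -0.38 and -0.87 and a limma adjusted p of 0.18 each, although control replicate 3 and mutant replicate 1 of BC002189 were almost equal.

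Gm43185, which overlaps a retained-intron transcript of Nexn, the gene of an actin-binding protein of the Z-disc, was at 21.03, 13.8 and 13.5 FPKM in controls and 10.5, 9.34 and 7.495 in mutants. Its log2 fold change was -0.74 (standard error 0.18, limma adjusted p = 0.154). Gm7265 in Nedd4, a ubiquitin ligase gene, overlapped between the groups at 18.6, 14.01 and 12.1 against 12.6, 11.03 and 8.63. Gm36989 in Matr3, the gene of the nuclear matrix protein matrin 3, was at 18.4, 20.7 and 18.5 against 17.1, 18.4 and 13.6. Both of these overlapped, and neither passed the adjusted threshold.

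The member that was higher at an unadjusted p under 0.05 was RP24-317F6.7 in Mthfd2, the gene of a mitochondrial folate enzyme. It was at 1.04, 0.842 and 0.796 FPKM in controls and 2.40, 1.91 and 1.304 in mutants. By limma it changed by 0.59 on the log2 scale (standard error 0.17), with an adjusted p of 0.187. Every mutant lay above every control, against the direction of most members, and it reached the limits for a member and for the test through the mutants, where it was high. Mthfd2 itself was at 12.9, 15.8 and 13.4 in controls and 58.6, 57.6 and 33.8 in mutants, a log2 fold change of 1.73 (standard error 0.20). In both, the lowest mutant was the library labelled mutant replicate 3.

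Most of the other members with a value above 0 that are named here were highest in the mutants with a high erythroid share. Gm37527 lies in Kel, the gene of the Kell blood group protein of red cells. It was at 11.7, 10.9 and 8.40 FPKM in controls and 15.9, 7.09 and 15.5 in mutants, and Kel at 43.2, 37.7 and 36.6 and at 75.2, 29.4 and 73.9. Gm20236 lies in Slc25a37, which encodes mitoferrin, the iron importer of erythroid mitochondria, and was at 9.77, 10.5 and 6.72 in controls and 12.1, 7.67 and 13.4 in mutants. Gm37094, in the neighbouring gene Gm16867, was at 12.6, 4.72 and 7.02 and at 14.4, 8.24 and 14.9. Its annotated sequence is shared with Gm20236 in full (100% of its 31-base words), so fragments of this pair cannot be told apart. CT025556.1 in Ell2 and Gm43145 in Bmp2k were likewise highest in mutant replicates 1 and 3, at 5.13 and 5.69 and at 5.52 and 4.98. In all 5 the mutant replicates 1 and 3, where erythroid markers took 23.5% and 21.9% of FPKM, were above every control and mutant replicate 2 was not. Gm37094 and Gm20236 are not separate cases among these. Within the controls Gm37094 was lowest in control replicate 2, where the erythroid share of the controls was highest. None of them passed an unadjusted p of 0.05 with all 6 libraries, where their log2 fold changes were 0.20 to 0.62. These were 0.43 to 0.88 without mutant replicate 2. They were 0.035 to 0.50 without mutant replicate 1 and 0.055 to 0.48 without the library labelled mutant replicate 3. The part of red cells in these values was not tested. Gm7292 and RP23-181P23.1, which have no gene on their strand, were, like Gm28967, among the 8 higher members of lowest p, with log2 fold changes of 0.45 and 0.23 and overlapping groups. Single libraries decided these values: that of Gm7292 was -0.025 without control replicate 2 and 0.91 without mutant replicate 1, and that of RP23-181P23.1 was 0.076 without control replicate 1 and 0.15 without the library labelled mutant replicate 3.

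The coding genes that hold the members served as a comparison, since both are copied from the same strand of the same gene. Over 425 pairs the median difference between mutant and control hearts was -0.37 for the intronic member and -0.05 for the coding gene, and the member lay below its gene in 406 pairs. The 376 coding genes had median deviations between -0.06 and 0.04 by library. Taken as a ratio to its own gene, the median member deviated by 0.37, 0.13 and -0.02 in control replicates 1, 2 and 3 and by -0.01, -0.18 and -0.29 in mutant replicates 1, 2 and 3. The ratio was highest in control replicate 1 in 311 of 425 pairs and lowest in the library labelled mutant replicate 3 in 245. The gradient between libraries was thus present in the members and close to absent in the genes that hold them.

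Members of genes with a lower value tended to be lower themselves. Across the 425 pairs the log2 fold changes of member and gene correlated with a Pearson r of 0.63 and a Spearman rho of 0.52, given as a description since both values of a pair come from the same 6 libraries and some pairs share a gene. By the same rule as for the pairs below, 9.43% of all genes tested were lower and 5.58% higher. Where the coding gene was lower at an unadjusted p under 0.05 (64 pairs in 50 genes), the median member was at -0.63. In this set 55 members were lower by the same rule. Where the coding gene was higher (22 pairs), the median member was at -0.23, with 3 lower and 1 higher. In the remaining tested pairs (338), it was at -0.35, with 136 lower and none higher. These sets were formed by the coding gene's own value, so only the members' values are given for them.

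**Figure D4:**
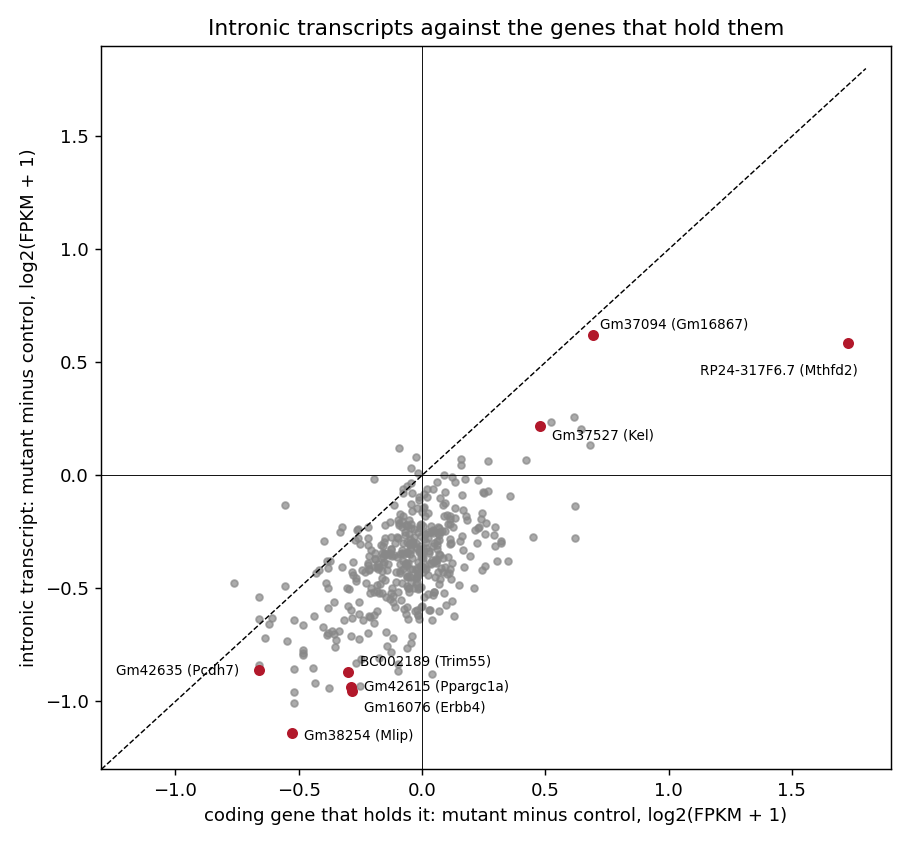
Difference between mutant and control hearts on the log2(FPKM + 1) scale for 425 intronic transcripts (vertical axis) against the coding gene that holds each (horizontal axis), with equality as a dashed line. The cloud follows the direction of the line but lies below it, at a median of -0.37 against -0.05, with RP24-317F6.7 in Mthfd2 at the far right.

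Beside Pcdh7 and Cacnb2, 5 coding genes held 3 or more members. The 4 members of Rabgap1l, which encodes a GTPase-activating protein, ranged from -0.79 to -0.66 on the log2 scale, beside -0.48 for the gene. The 3 of Akap13, an anchoring protein gene of cardiac signalling, ranged from -0.65 to -0.52 beside -0.19 for the gene, and the 3 of Ncoa2, a nuclear receptor coactivator gene, from -0.48 to -0.30 beside -0.02. Wider ranges were found in Auts2, a gene of neural development, whose 4 members, of which 2 were outside the filter, ran from -0.70 to -0.41 beside -0.38 for the gene, and in Tcf12, a transcription factor gene, whose 3 ran from -0.58 to -0.29 beside -0.06.

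A few members carry names of their own. Peg13, an imprinted noncoding gene inside Trappc9 that is expressed from the paternal allele, was at 4.10, 3.76 and 3.42 FPKM in controls and 3.45, 3.87 and 3.35 in mutants. It overlapped between the groups, changed by -0.06 on the log2 scale (standard error 0.11) and lacked the range of the other members. Ppnr in Tcf7l2, a Wnt pathway transcription factor gene, was at 6.22, 4.01 and 3.68 in controls and 3.66, 3.45 and 2.51 in mutants, and Hm629797 in Phkb, a phosphorylase kinase gene, at 2.46, 1.73 and 1.23 and at 1.153, 0.810 and 0.716. Both separated the groups narrowly and had their highest value in control replicate 1 and their lowest in mutant replicate 3.

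The number of members under 1 FPKM is given by library as a description, since the rule chose members by a mean of at least 1 and a member low in one group had to be high in the other. All 463 members reached 1 FPKM in control replicate 1, while 10 were under 1 in control replicate 2 and 29 in control replicate 3. In the mutants, by replicate number, 42, 62 and 125 were under 1. In 10 members all controls were at 1 or above and all mutants below, against 0.528% of all genes tested, among them Gm42534 in Slit2, the gene of a guidance ligand, at 2.44, 1.33 and 1.48 against 0.771, 0.773 and 0.606, and Gm36962 in Lama2, a laminin gene of the muscle basement membrane, at 1.598, 1.48 and 1.26 against 0.480, 0.910 and 0.382. No member had the reverse, against 0.158%.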

How the data were processed

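Hearts of 3 control and 3 mutant pools (embryonic day 12) were sequenced after removal of ribosomal RNA. The authors deposited 1 table of FPKM values per transcript row; the submitters' notes name Bowtie2 2.2.8, HISAT2, StringTie 1.3.1 and Cuffdiff 2.1.1 and the build mm9, without their roles, and the annotation and the strand setting of the counting are not given in the sources used here. Values were summed per gene, 1 was added, and log2 values were compared with limma 3.58.1 (R 4.3.3) in a design without covariates, tested on simulated data, with Benjamini-Hochberg adjustment. FPKM are not counts, and whole fragments came out for 46.9 to 50.4% of low values (within 0.05, a window that covers 10% of the range), so no count test was run. GENCODE M21 gave sequences, exons and neighbouring genes, matched by identifier without version. Deviations of a control and a mutant library correlated at 0.22, 0.11 and 0.09 where the replicate number was the same. They correlated at -0.17 to 0.05 where it differed. These correlations are low and the main design did not take the numbers to pair the libraries, but whether they do was not settled. Members and lists were chosen with earlier results of these data known. Named members were the 10 of highest mean, any with an adjusted p under 0.05, the 8 of lowest p in each direction, those at the limit of 1 and up to 6 with names of their own; the other members of Pcdh7, Cacnb2, Rabgap1l, Akap13, Ncoa2, Auts2 and Tcf12, Gm42534, Gm36962 and Gm42929 were added after their values were seen. Some named members are not reported here. P-values measure the spread between pools.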

Additional observations from a re-analysis of the deposited data

How the results depend on the processing

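All of these concern the comparison of mutant with control hearts by limma. The median log2 fold change of the members stayed below 0 in each alternative that did not shift the libraries to the members themselves, from -0.50 with a pseudocount of 0.1 to -0.17 without control replicate 1 and mutant replicate 3 together, and from -0.46 to -0.26 when 1 library was left out. The count of members lower at an unadjusted p under 0.05 (211) ranged from 115 to 271 when 1 library was left out, was 76 without both libraries, 47 of 100 among sense_intronic members, 262 with equal summed FPKM (against 12.2% of all genes) and 173 after quantile normalization (against 8.81% of all genes), and was within 1.5 times the first value in the remaining planned settings. Equal summed FPKM moved the median of all genes from -0.02 to -0.09. With each library shifted to the same median of the members, 21 were lower and 19 higher, against 0.573% and 34.5% of all genes. The median of the members was then 0.02, which the shift itself brings near 0, and that of all genes 0.37. The count that was higher (1) was 2 after quantile normalization and under the replicate block, 1 to 6 when 1 library was left out, 7 without both libraries, and 0 among members with a mean of at least 2 and among sense_intronic members. The count at an adjusted p under 0.05 (1) was 16 with equal summed FPKM, where 69 of all genes were lower and 42 higher against 4 and 7 before, 0 without a filter, with the replicate block, with the most abundant row of each gene and among sense_intronic members, 0 to 7 when 1 library was left out, and 2 without both libraries. The 7 were found without mutant replicate 3, where 133 of all genes were lower and 136 higher. The replicate block gave 267 lower members (against 10.98% of all genes), and whether the replicate numbers pair the libraries was not settled. The share of summed FPKM (-0.0964 percentage points) was -0.0443 with erythroid markers left out of the total and -0.0960 with mitochondrial DNA genes left out as well. It was -0.117 to -0.0716 when 1 library was left out. Among sense_intronic members and those with a mean of at least 2 fewer members entered; otherwise the cause was not tested. Of 25 named members, 3 changed sign in 1 setting each, Peg13 (0.0217) and RP23-181P23.1 (-0.000755) without both libraries and Gm7292 without control replicate 2 (-0.0253, with fits without 1 library up to 0.907), all of them with a p above 0.05 in the comparison of all 6 libraries. The shift to a common median, the count without both libraries and the count without the 16 members over a coding exon (205 lower) were chosen after seeing the data.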
